A study of Homo sapiens with 26 samples.

Results

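Cytosolic ribosomal protein genes encode the protein part of the ribosome that translates nuclear mRNA. They were taken from the array table by symbol: RPL or RPS with a number and an optional A, X, L or L1 ending, or RPLP0, RPLP1, RPLP2 or RPSA, leaving out the Y-linked RPS4Y1 and RPS4Y2. The rule found 52 of 17687 genes, each with 1 probe set. Of these, 45 were canonical genes, 26 of the large subunit (RPL) and 19 of the small subunit (RPS), and 7 were paralogs whose symbol ends in L or L1 (RPL3L, RPL7L1, RPL10L, RPL22L1, RPL26L1, RPL39L and RPS27L). The canonical parents RPL7, RPL22, RPL26 and RPS27 were among the members, and RPL3, RPL10 and RPL39 were not analysed here.

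The arrays held RNA of 3 established human lung cancer cell lines, NCI-H1975 (H1975), A549 and NCI-H1299 (H1299). After a night in culture, cells received the MYC-derived miniprotein Omomyc at 12.8 µM or the vehicle PBS, in RPMI1640 medium with serum. The sources used here do not give the exposure time. There were 5 Omomyc and 4 PBS arrays of H1975, 3 and 4 of A549, and 5 and 5 of H1299. No other protein was added as a control, so what belongs to Omomyc and what to protein addition as such cannot be told apart. The labels call the arrays of a group biological replicas without naming separate cultures, and p-values therefore measure the spread between arrays, which may be technical. In such bulk RNA, fewer cells of a type and less RNA per cell cannot be told apart.

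A ribosome is built from a large and a small subunit, each an RNA scaffold with many proteins present in a single copy, and proliferating cells make these proteins in large, matched amounts. Most of their mRNAs start with a C followed by a run of pyrimidines, the 5′ terminal oligopyrimidine (TOP) tract, through which mTOR and LARP1 control their translation. MYC is known as a broad activator of ribosome production, and it binds the E-box CACGTG together with MAX. The paralogs are separate genes that resemble a canonical gene and are often restricted to certain tissues or states.

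Start sites are shown to set the TOP tracts of parents beside their paralogs. A tract was searched on the gene's strand as a C at the annotated RefSeq start (GRCh38.p14) followed by at least 4 further C or T bases. It was found in 30 of 41 canonical genes (73.2%), in 1 of 5 paralogs (20%) and in 868 of 14250 array genes with a promoter entry (6.09%). RPL22L1 was the paralog with a tract. The 30 bases around the start are given for 3 paralogs and their parents, with the tract in capitals and the annotated start at the first base after 15.
RPL22L1, chr3:170870181-170870210, minus strand: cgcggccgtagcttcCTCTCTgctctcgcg
RPL22, chr1:6199581-6199610, minus strand: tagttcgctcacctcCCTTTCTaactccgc
RPS27L, chr15:63157463-63157492, minus strand: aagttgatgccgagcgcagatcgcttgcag
RPS27, chr1:153990747-153990776, plus strand: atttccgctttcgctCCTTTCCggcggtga
RPL26L1, chr5:172958714-172958743, plus strand: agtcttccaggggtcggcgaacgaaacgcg
RPL26, chr17:8383179-8383208, minus strand: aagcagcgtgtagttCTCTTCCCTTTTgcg
The pyrimidine run was 6 bases long in RPL22L1, 7 in RPL22 and in RPS27 and 12 in RPL26. RPS27L and RPL26L1 had none at the annotated start. A match describes the letters only and shows nothing about translation.

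The MYC-MAX E-box CACGTG, a palindrome that reads the same on both strands, was searched in the same promoters. In the window of 250 bases before to 50 after the start it occurred in 3 of 41 canonical genes (7.32%: RPL19, RPS19 and RPS28), in 1 of 5 paralogs (RPL7L1) and in 10.8% of all array genes with an entry. The bases around the match are shown for RPS28, a canonical gene described further with the line differences, and for the paralog, with the E-box in capitals.
RPS28, chr19:8321478-8321507, plus strand: ctctccccgaagCACGTGactcctctccgc
RPL7L1, chr6:42879488-42879517, plus strand: cacttccacctaCACGTGagagccaaagcc
The E-box began 6 bases upstream of the annotated start in RPS28 and 116 bases upstream in RPL7L1. RPL30, RPL37, RPL39L, RPL3L, RPL7 and RPS15A had no promoter entry.

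Array quality and labels were checked once for all genes. The sorted values of whole arrays fell into 3 sets of 9, 10 and 7 arrays, called runs here although no label names them and whether they are scan or normalization batches is not known, and the array mean lay at 7.08 to 7.12 in run 1, 7.30 to 7.36 in run 2 and 6.94 to 6.99 in run 3. Both treatments of every line were present in every run, with 1 exception: run 3 held an A549 PBS array and 0 A549 Omomyc arrays. AKR1B10 and AKR1C1, high in A549 cells, were at 16.73 to 17.10 in both A549 groups and at 2.92 to 9.37 in the other lines. The epithelial keratins KRT8 and KRT18 were at 12.81 to 17.55 in all groups, whereas CDH1 was at 3.11 to 3.93 in H1975 and H1299. EPCAM was at 8.99 to 9.54 in H1975 and A549 and at 3.76 to 3.92 in H1299. The mesenchymal markers VIM and ZEB1 were at 11.55 to 16.51 in all groups, and FN1 at 6.37 to 14.66. The leukocyte markers PTPRC and CD3E (2.80 to 3.26) and the fibroblast markers DCN and LUM (2.81 to 4.63) lay within the means of the 23 background probe sets, 2.34 to 6.69. CD68 and the collagens COL1A1 and COL1A2, which some cancer cells also express, reached 14.35, 9.44 and 8.05. All values are log2 values as deposited, and because each probe set has its own brightness, levels of different genes are given side by side without a fold change.

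Canonical genes were among the brightest probe sets in every line. All 45 were above the highest background mean of 6.69, and averaged over the arrays they ranked between the 90.8th and the 99.99th percentile of all genes, with 36 of 45 above the 99th. In Omomyc-treated cells the canonical median was 16.42 in H1975, 16.13 in A549 and 16.58 in H1299, against 16.08, 15.96 and 16.58 in PBS-treated cells of the same lines. In PBS-treated cells their means ran from 11.75 (RPL29) to 17.93 (RPS28) in H1975, from 10.48 (RPL29) to 17.81 (RPS16) in A549 and from 11.93 (RPL27) to 17.75 (RPS16) in H1299. Such bright probe sets can be compressed near the top of the scale, and transcripts of the many near-identical processed pseudogenes of this family could bind the same probes; neither was tested.

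The 7 paralogs ranked between the 11.5th and the 92.2nd percentile of all genes (median 80.6), so that the highest of them overlapped the canonical range. RPL7L1, RPL22L1, RPL26L1 and RPS27L were above the highest background mean in all 6 groups, with group means of 9.63 to 13.29. The group means of RPL39L (4.69 to 6.42), RPL3L (3.55 to 4.07) and RPL10L (2.65 to 3.40) stayed within the background range. Single arrays of RPL39L went above it, at 7.07 and 6.96 on PBS replicates 2 and 3 of H1299. RPL3L is known from striated muscle, RPL10L and RPL39L from the testis, and their array values are at most an upper bound on a level here.

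**Figure D1:**
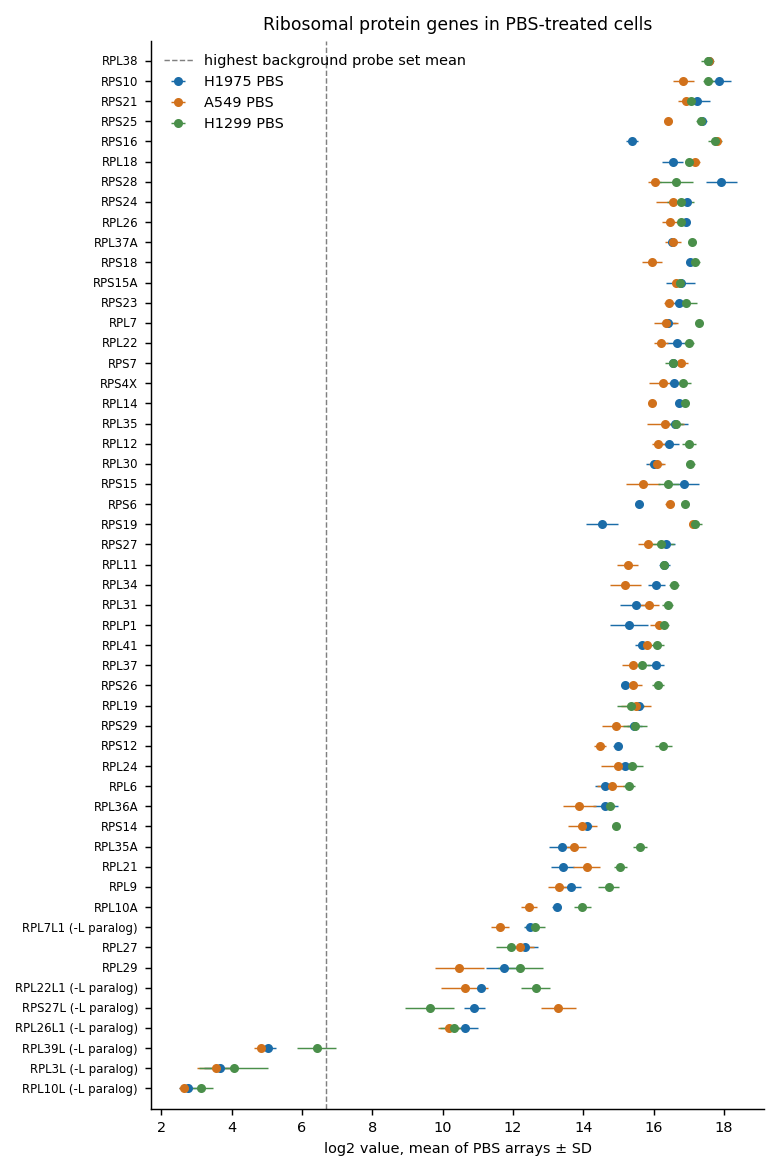
Mean log2 value in PBS-treated cells (x axis) of each of the 52 genes (y axis), with bars of 1 SD over 4 H1975, 4 A549 and 5 H1299 arrays; the dashed line is the highest background mean, 6.69. Canonical genes lie between 10.48 and 17.93, and 3 paralogs lie left of the line in all 3 lines.

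The first question was whether any ribosomal protein gene changed with Omomyc. RPL22L1, a paralog of the large subunit protein RPL22, rose in H1975 and fell in H1299, and it was the only member past the test in either line (limma, adjusted p under 0.05 over 17687 genes). No member passed in A549. That is 1 of 52 in H1975, where 11.8% of all genes passed, 1 of 52 in H1299, where 8.87% did, and 0 of 52 in A549, where 1.19% did. Counted by direction, 5.57% of all genes were called higher and 6.28% lower in H1975, 0.916% higher and 0.277% lower in A549, and 4.35% higher and 4.52% lower in H1299. At an unadjusted p under 0.05, 9 members were higher (10.7% of all genes) and 1 lower (11.7%) in H1975, 2 higher (5.53%) and 0 lower (3.19%) in A549, and 0 higher (9.67%) and 2 lower (9.72%) in H1299.

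RPL22L1 moved in opposite directions in H1975 and H1299. In H1975 it was at 12.55, 12.03, 12.80, 12.67 and 11.95 on the Omomyc arrays and at 11.20, 11.10, 11.03 and 11.0017 on the PBS arrays. All 5 Omomyc values were above all 4 PBS values. The difference was 1.32 ± 0.27 (SE; 2.50-fold; adjusted p = 0.00102). In H1299 the Omomyc arrays were at 10.53, 10.70, 11.27, 10.75 and 11.12 and the PBS arrays at 12.43, 12.63, 13.08, 12.08 and 12.99. Here all 5 Omomyc values were below all 5 PBS values. The difference was -1.77 ± 0.25 (SE; 3.41-fold lower; adjusted p = 2.52e-05).

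In A549 RPL22L1 was at 11.57, 10.80 and 11.06 with Omomyc and at 11.02, 10.32, 11.31 and 9.86 with PBS. The groups overlapped, and the difference of 0.52 was not past the test (95% interval -0.11 to 1.14; adjusted p = 0.734). Without PBS replicate 4, the lowest array, it was 0.26. Within run 2 of A549, 1 array against 1, the sign was the other way (-0.25).

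The responses of RPL22L1 were then compared directly. The H1975 response exceeded the H1299 response by 3.09 ± 0.37 (SE; adjusted p = 1.62e-06) and the A549 response exceeded the H1299 response by 2.28 ± 0.40 (SE; adjusted p = 0.000923). Between H1975 and A549 the difference of 0.80 missed the threshold (95% interval -0.03 to 1.63, adjusted p = 0.341), in a test that 4.62% of all genes passed. It passed with the replicate number as a block (1.17, adjusted p = 0.035), for which the share of all genes is not given here. That block is not shown to suit H1975, where only 1 of 4 replicate numbers joined arrays whose deviations correlated above 0.1. RPL22L1 was the 1 member of 52 in the F test of a response that differs between lines, which 8.18% of all genes passed. In the other pairwise tests 5.7% (H1975 minus H1299) and 2.47% (A549 minus H1299) of all genes passed. In the fit that blocks on the run, where 11.7% of all genes passed, RPL39L passed as well for H1975 minus H1299 (1.09, adjusted p = 0.0425, against 0.0988 without the block), with all its group means within the background range.

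H1299 changed its place among the lines with treatment. With Omomyc, RPL22L1 averaged 12.40 ± 0.38 in H1975, 11.14 ± 0.39 in A549 and 10.87 ± 0.31 in H1299, whereas with PBS it averaged 11.08 ± 0.091, 10.63 ± 0.66 and 12.64 ± 0.41 in the same lines (SD). H1299 had the highest mean with PBS, and with Omomyc the lowest, where its arrays overlapped those of A549. The PBS level was lower than in H1299 by more than the array spread both in H1975 (-1.56 ± 0.27, SE; adjusted p = 1.70e-05) and in A549 (-2.02 ± 0.27, SE; adjusted p = 3.07e-07), and the PBS levels of H1975 and A549 were not told apart (0.46, adjusted p = 0.226). Line differences with Omomyc were not tested.

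The parent RPL22, an RNA-binding protein of the large subunit whose loss raises Rpl22l1 in mouse, gave other values on the same arrays. In H1975 it averaged 16.76 ± 0.15 with Omomyc and 16.66 ± 0.30 with PBS, in A549 16.18 ± 0.04 and 16.21 ± 0.19, and in H1299 16.96 ± 0.30 and 17.01 ± 0.15 (SD). The arrays overlapped in all 3 lines. The differences were 0.10 in H1975 (95% interval -0.27 to 0.47), -0.03 in A549 (-0.45 to 0.40) and -0.05 in H1299 (-0.40 to 0.30), none past the test.

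The RPL22L1 changes held within the runs. The H1975 difference was 1.09, 1.67 and 0.95 within runs 1, 2 and 3, and the H1299 difference was -1.90, -1.87 and -1.60. Blocking on the run gave an adjusted p of 0.000166 in H1975 and 2.33e-06 in H1299. Leaving out each array in turn gave 1.22 to 1.43 in H1975 and -1.91 to -1.66 in H1299, called each time.

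**Figure D2:**
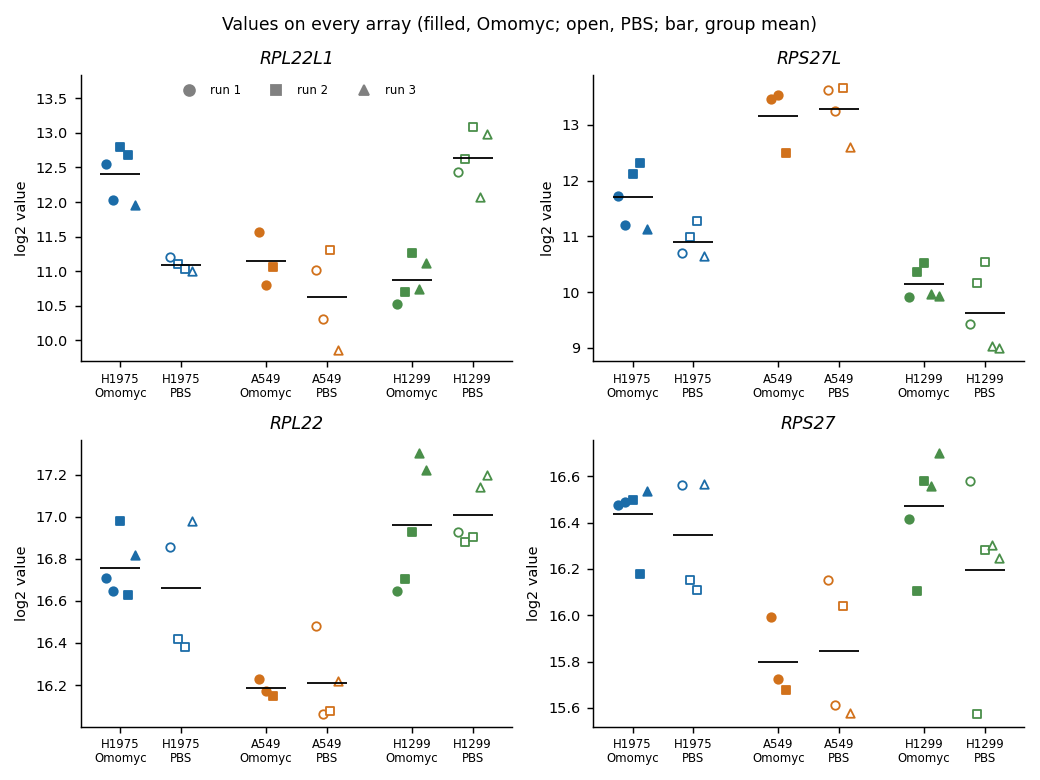
Log2 value on every array (y axis) of RPL22L1 and RPS27L (upper panels) and of their parents RPL22 and RPS27 (lower panels), by line and treatment (x axis); filled symbols are Omomyc, open symbols PBS, bars are group means, and shapes mark the run. RPL22L1 is higher on all 5 Omomyc arrays of H1975 and lower on all 5 of H1299, while the RPL22 groups overlap. The y axes do not start at 0 and differ between panels.

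RPS27L, the paralog of RPS27 and a known p53 target gene, had the next highest change of a member in H1975. It was at 11.73, 11.20, 12.12, 12.32 and 11.14 on the Omomyc arrays and at 10.70, 10.99, 11.28 and 10.65 on the PBS arrays. The groups overlapped in that 2 Omomyc values were below the highest PBS value. The difference of 0.80 ± 0.32 (SE) missed the threshold (adjusted p = 0.113), and passed once runs were blocked (adjusted p = 0.0162), a fit in which 19.2% of all genes were called in H1975. The within-run differences were 0.76, 1.09 and 0.49.

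In the other lines RPS27L was less clear. H1299 gave 9.92, 10.36, 10.52, 9.96 and 9.93 with Omomyc and 9.43, 10.17, 10.55, 9.03 and 8.99 with PBS. The groups overlapped (0.50, 95% interval -0.11 to 1.12; adjusted p = 0.399), and the runs gave 0.49, 0.08 and 0.94. A549 gave 13.46, 13.53 and 12.49 with Omomyc and 13.64, 13.25, 13.67 and 12.61 with PBS (-0.13, 95% interval -0.87 to 0.61), and the runs gave 0.053 and -1.18. RPS27, a zinc finger protein of the small subunit, changed by 0.09, -0.05 and 0.28 in H1975, A549 and H1299, with no call.

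The remaining paralogs gave no call in any line. RPL7L1, a paralog of RPL7 known from assembly of the large subunit, was lower in mean in each line: 12.03 against 12.47 in H1975, 11.37 against 11.62 in A549 and 12.36 against 12.62 in H1299, Omomyc against PBS. The average over the lines was -0.32 ± 0.12 (SE), with an adjusted p of 0.0795 without and 0.0413 with the run as a block. RPL26L1, a paralog of RPL26, changed by 0.17, -0.16 and -0.26 in the same order of lines. RPL39L changed by 0.52, -0.15 and -0.56, but every group mean was within the background range.

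Canonical genes were tested next, one by one and as a group. None of the 45 was called in any line or in the average of the 3 lines, for which 11.2% of all genes were called. The 95% intervals of the single genes reached at most 1.33 up and 0.73 down in H1975, 1.59 and 0.69 in A549, and 0.89 and 0.60 in H1299, so these arrays leave changes within those bounds undecided. In the fit that blocks on the run, RPS29 was called in H1975 (0.52, adjusted p = 0.0414) and RPL29 in the average of the lines (adjusted p = 0.0256), where 18.4% of all genes were called.

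In H1975 the canonical genes shared a small positive shift. The change was above 0 for 42 of 45, against 50.5% of all genes, with a median of 0.25 against 0.0038 over all genes. In A549 it was above 0 for 32 of 45, against 55.2% of all genes, with a median of 0.11 against 0.042, and without PBS replicate 4 of A549 that median was 0.026. In H1299 it was above 0 for 25 of 45, against 50.2% of all genes, with a median of 0.02 against 0.0018. Genes of 1 family rise and fall together on an array, so these counts are not 45 separate observations. Some cell type markers also changed with Omomyc in H1975: CD68 rose by 1.49 (adjusted p = 2.99e-05), ZEB1 rose by 0.84 (adjusted p = 0.00375) and KRT8 fell by 0.56 on the log2 scale (adjusted p = 0.0486). These 3 were the called ones among the epithelial, mesenchymal, fibroblast and leukocyte markers. Of the other epithelial markers EPCAM went the other way from KRT8 (0.43), while KRT18 (-0.20) and CDH1 (-0.20) fell, without a call. VIM (0.22) and FN1 (0.42) rose without a call. PTPRC and CD3E stayed within the background range. What part marker changes have in the shift was not tested.

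Array by array, the Omomyc and PBS arrays of H1975 overlapped. The median canonical gene, measured from its PBS mean, was at 0.28, 0.04, 0.45, 0.20 and 0.22 on the Omomyc arrays and at 0.19, 0.024, -0.14 and 0.0047 on the PBS arrays. Of the 5 Omomyc values 4 were above all PBS values, and replicate 2 was below the highest PBS value. Within run 1 the difference was 0.0025, within run 2 0.39 and within run 3 0.21. Quantile normalization of all arrays gave a median change of 0.14 in H1975, 0.03 in A549 and -0.02 in H1299, and median centring gave 0.36, 0.07 and 0.06, so the sign in H1299 depends on the scaling.

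**Figure D3:**
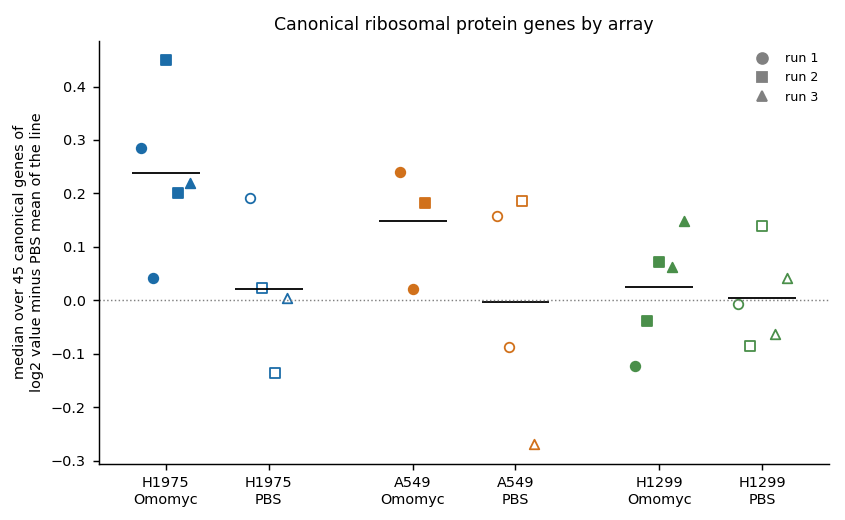
Median over the 45 canonical genes of the log2 value minus the PBS mean of the line (y axis) on each array, by line and treatment (x axis); filled symbols are Omomyc, open symbols PBS, bars are group means and shapes mark the run. The H1975 Omomyc arrays run from 0.04 to 0.45 and the H1975 PBS arrays from -0.14 to 0.19.

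The positive shift in H1975 was seen in genes of both subunits. The median change was 0.31 over 26 large subunit genes, 24 of them above 0, and 0.14 over 19 small subunit genes, 18 of them above 0. In A549 the medians were 0.24 (22 of 26 above 0) and 0.03 (10 of 19), and in H1299 0.01 (14 of 26) and 0.03 (11 of 19). In H1975 all 30 canonical genes with a TOP tract had a change above 0 (median 0.28), as did 9 of 11 without one (median 0.19). In A549 the genes with a tract had a median of 0.09 and those without 0.28, and in H1299 the medians were both 0.01.

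Some canonical genes had larger changes that did not reach a call. RPS14, a small subunit protein near the mRNA channel that is deleted in the 5q- syndrome, was at 14.89, 14.27, 14.86, 14.31 and 14.73 with Omomyc and at 14.26, 14.15, 13.98 and 13.97 with PBS in H1975. All Omomyc values were above all PBS values, if only just for 2 of them (0.52 ± 0.20, SE; adjusted p = 0.097). RPL29, a large subunit protein, was at 12.82, 11.70, 13.06, 12.50 and 11.97 with Omomyc and at 12.47, 11.80, 11.39 and 11.34 with PBS in H1975. Its groups overlapped (0.66 ± 0.33, SE; adjusted p = 0.235), and within run 1 the sign was negative (-0.21).

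In A549 RPL29 was at 11.62, 11.11 and 11.18 with Omomyc and at 11.02, 10.41, 10.95 and 9.53 with PBS. The groups did not overlap, yet the difference of 0.83 ± 0.37 (SE) was not called (adjusted p = 0.488), and without PBS replicate 4, the lowest array, it was 0.51. In H1299 its change was 0.21 ± 0.31 (SE), with -0.23, -0.20 and 0.84 in runs 1, 2 and 3. FAU and RPL36AL, ribosomal protein genes whose symbols are outside the rule, changed by 0.70 and 0.74 in A549, also without a call, and without PBS replicate 4 FAU was at 0.41.

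Non-overlap of arrays was counted for all members. In H1975 RPL22L1, RPL38 and RPS14 lay wholly above PBS (5.18% of all genes did) and 0 lay below (5.35%). In A549 RPL10A, RPL10L, RPL12, RPL14 and RPL29 lay above (5.79% of all genes) and RPL18 and RPS19 below (3.6%). In H1299 RPL22L1 lay below (4.09% of all genes) and 0 lay above (3.91%). RPL38, RPL12 and RPL14 are named here because of this count, after their values were seen.

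**Figure D4:**
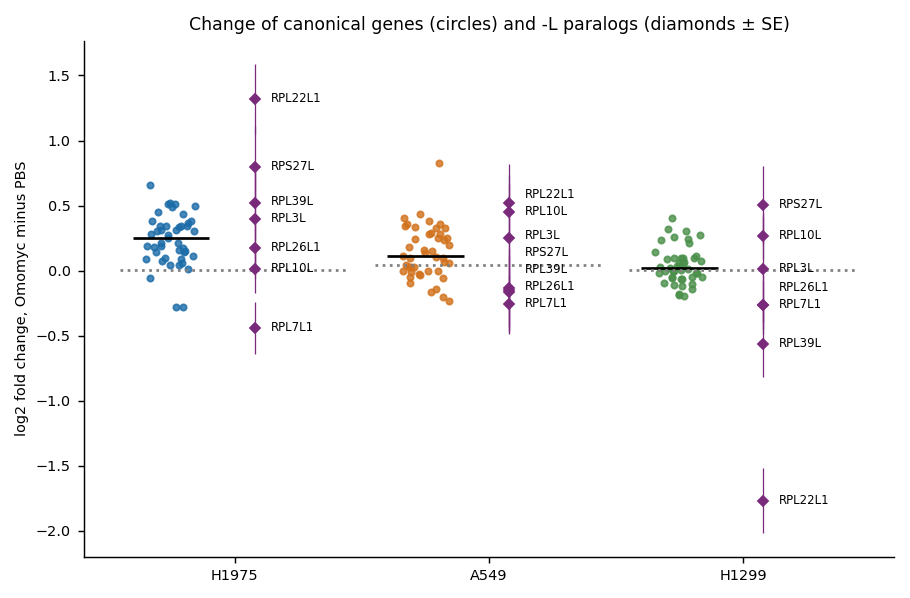
Log2 fold change, Omomyc minus PBS (y axis), of the 45 canonical genes (circles, with the median as a bar) and the 7 paralogs (diamonds with 1 SE) in each line (x axis); the dotted line is the median of all genes. RPL22L1 lies at 1.32 in H1975 and at -1.77 in H1299, outside the range of the canonical genes in both lines, which is -0.28 to 0.66 in H1975 and -0.19 to 0.40 in H1299.

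Other genes of ribosome production and TOP control are given as lists beside the members. Of 74 mitochondrial ribosomal protein genes, which build the separate ribosome of mitochondria, 3 rose and 1 fell in H1975, 0 passed in A549 and 6 fell in H1299, with median changes of 0.01, -0.07 and -0.23. MRPL2 rose in H1975 (12.32 with Omomyc, 11.26 with PBS; adjusted p = 0.00266), and MRPL42 fell in H1299 (11.78 with Omomyc, 12.72 with PBS; adjusted p = 0.000201). Of 15 other measured genes with TOP mRNAs, such as EIF3H and NPM1, 0 were called in any line, with medians of 0.13, 0.22 and 0.05.

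Among 10 chaperones and assembly factors of ribosomal proteins, NOB1, the endonuclease that trims the small subunit RNA, rose in H1975 by 1.34 ± 0.18 (SE; adjusted p = 6.60e-06). HEATR3 and GRWD1, which escort large subunit proteins before assembly, fell there by 2.01 and 0.94 on the log2 scale. LTV1 fell in H1299 (-0.62, adjusted p = 0.0493), and 0 of the 10 passed in A549. Of 5 TOP regulators, EIF4EBP1, a translation repressor under mTOR, rose in H1975 (1.22 ± 0.33, SE; adjusted p = 0.0133) and fell in H1299 (-1.69 ± 0.31, SE; adjusted p = 0.000538). EIF4EBP2 fell in H1975 (-1.45) and RPS6KB1 in H1299 (-0.78), and LARP1 and MTOR were not called in any line.

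The second question was how the lines differ without Omomyc. The PBS level differed between lines for 35 of 52 members (67.3%), against 56.1% of all genes. Canonical genes were mostly lower in A549 than in H1299: 24 of 45 were called lower and 0 higher. With paralogs, 28 members were lower (22.5% of all genes) and 1 higher (19%). Of the paralogs called lower, some had group means within the background range. In H1975 against H1299, 21 members were lower (20.8% of all genes) and 2 higher (21.2%). In H1975 against A549, 7 were lower (18%) and 13 higher (20.3%). The median canonical difference was 0.29 for H1975 minus A549, -0.27 for H1975 minus H1299 and -0.53 for A549 minus H1299, against 0.07, -0.02 and -0.10 over all genes, and these signs stayed under quantile normalization, median centring and the run block.

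RPS16 and RPS19, small subunit proteins, showed the largest such differences among canonical genes. RPS19 is the gene most often mutated in Diamond-Blackfan anaemia. In PBS-treated cells RPS16 was at 15.53, 15.33, 15.18 and 15.50 in H1975, at 17.79, 17.69, 17.93 and 17.82 in A549 and at 17.63, 17.46, 17.84, 17.90 and 17.91 in H1299. RPS19 was at 15.06, 14.75, 14.31 and 14.04 in H1975, at 17.18, 17.17, 17.02 and 17.09 in A549 and at 17.25, 16.89, 17.33, 17.31 and 17.15 in H1299. For both genes all H1975 arrays were below all arrays of the other lines, which overlapped each other.

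RPS16 was lower in H1975, with a difference of -2.42 ± 0.19 to A549 (SE; 5.35-fold; adjusted p = 1.36e-11) and of -2.36 ± 0.18 to H1299 (SE; adjusted p = 6.33e-12). For RPS19 the same differences were -2.57 ± 0.22 (SE; adjusted p = 6.75e-11) and -2.65 ± 0.21 (SE; adjusted p = 1.03e-11). Both have a TOP tract at the annotated start, shown in capitals, of 8 bases in RPS16 and 11 in RPS19.
RPS16, chr19:39435935-39435964, minus strand: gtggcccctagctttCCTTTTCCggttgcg
RPS19, chr19:41860240-41860269, plus strand: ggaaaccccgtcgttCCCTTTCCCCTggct
Within H1975 RPS16 averaged 15.75 and RPS19 15.03 with Omomyc, against 15.39 and 14.54 with PBS, and neither change was called. RPS19 was called there with the replicate number as a block and without PBS replicate 1 or Omomyc replicate 5 (adjusted p = 0.0421, 0.0435 and 0.0431). The replicate numbers of H1975 are not shown to pair its arrays, and shares of all genes called in these fits are not given here.

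RPS16 and RPS19 lie near each other on chromosome 19, and the genes around them were low in H1975 too. This was looked at after the values were seen, by RefSeq gene order. Of all 64 measured genes between RPS16 and RPS19, 31 were called lower in H1975 than in both other lines and 0 higher, with median differences of -1.62 to A549 and -1.19 to H1299. The counts that follow keep genes with a PBS mean above 6.69 in at least 1 line, so that a gene may enter only through a line where it is high. Of 36 such genes between RPS16 and RPS19, 31 were called lower in H1975 than in both other lines and 0 higher, with median differences of -2.85 to A549 and -2.92 to H1299. Next to RPS16, for example, SUPT5H and TIMM50 differed from A549 by -2.78 and -3.02. Of the 20 genes before RPS16, 13 were lower than in both lines, and of the 20 after RPS19, 11 were lower and 5 higher. Among all 9967 such genes 1386 (13.9%) were lower in H1975 than in both lines and 1726 were higher. Of 648 on the rest of chromosome 19, 107 (16.5%) were lower and 251 higher. Their median differences were 0.99 to A549 and 0.47 to H1299, against 0.07 and 0.02 over all 9967.

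PBS line differences of members were correlated with those of the genes next to them, which also held, less closely, over all genes. For each of 49 members above background, the PBS difference was set against the median difference of up to 20 neighbours, 10 on each side. Across members Pearson's r was 0.87 for H1975 minus A549, 0.79 for H1975 minus H1299 and 0.55 for A549 minus H1299, and without RPS16 and RPS19 it was 0.80, 0.69 and 0.57. Across all 9958 expressed genes with neighbours it was 0.37, 0.40 and 0.31. Spearman's rho was 0.87, 0.78 and 0.71 over the 49 members and 0.45, 0.51 and 0.42 over all these genes. The sign was shared by 41, 37 and 33 of the 49 members, and by 6624, 7032 and 6603 of the 9958 genes (66.5%, 70.6% and 66.3%). For both contrasts with H1299 the share of members with the same sign was thus close to that of all genes. These are descriptions: gene and neighbours come from the same arrays, and 4 of the 49 have another member among their neighbours. The members and the wider set also differ in level. Most members are among the brightest genes, while a gene of the wider set may be above background in only 1 line. What this does to the correlations was not tested.

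RPS28 was high and RPS6 low in H1975, each with its neighbours. RPS28, a small protein of the small subunit, was at 18.17, 17.81, 17.37 and 18.35 in H1975, at 16.14, 15.83, 16.22 and 15.93 in A549 and at 17.01, 15.78, 16.74, 16.74 and 16.89 in H1299 with PBS. All H1975 values were above all values of the other lines. The difference was 1.89 ± 0.29 to A549 (SE; adjusted p = 3.16e-06) and 1.29 ± 0.27 to H1299 (SE; adjusted p = 0.000249), and its neighbours had medians of 2.11 and 1.29. RPS6, the small subunit protein phosphorylated by S6 kinase, averaged 15.58 ± 0.12 in H1975, 16.46 ± 0.13 in A549 and 16.88 ± 0.10 in H1299 (SD). Its neighbours had medians of -1.84 and -1.79, further from 0 than its own -0.88 and -1.30. Not every member went with its neighbours. RPL22L1 differed by -1.56 for H1975 minus H1299 and by -2.02 for A549 minus H1299, while its neighbours had medians of -0.19 and -0.14. For H1975 minus A549 the signs were opposite, 0.46 for RPL22L1 and -0.48 for its neighbours.

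**Figure D5:**
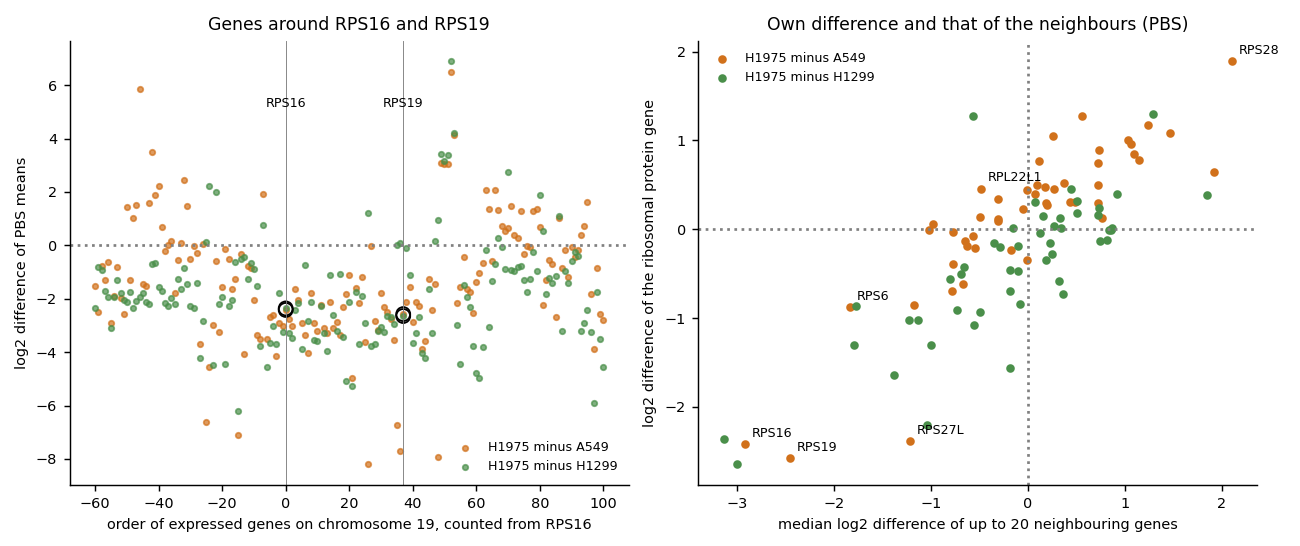
Left, PBS log2 difference between lines (y axis) of expressed genes in their order along chromosome 19 counted from RPS16 (x axis), with RPS16 and RPS19 ringed. Right, the PBS log2 difference of each of 49 ribosomal protein genes (y axis) against the median difference of up to 20 neighbouring genes (x axis); colours mark H1975 minus A549 and H1975 minus H1299. RPS16, RPS19 and most genes between them lie below 0, and Pearson's r on the right is 0.87 and 0.79.

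RPL35A and RPS12 marked H1299. RPL35A, a large subunit protein also mutated in Diamond-Blackfan anaemia, was at 13.90, 13.43, 13.32 and 12.95 in H1975 with PBS, at 13.91, 13.59, 14.13 and 13.35 in A549 and at 15.57, 15.58, 15.94, 15.39 and 15.55 in H1299. The H1975 and A549 arrays overlapped, and all H1299 arrays were above both. The difference was -2.21 ± 0.24 for H1975 minus H1299 (SE; adjusted p = 5.47e-09) and -1.86 ± 0.24 for A549 minus H1299 (SE; adjusted p = 1.30e-07). RPS12, a small subunit protein, differed by -1.30 and -1.80 in the same contrasts. RPS4X, the X-linked member, differed by -0.59 for A549 minus H1299 (adjusted p = 0.0116), and RPL38 was the member with the smallest evidence of a line difference, at 17.57, 17.57 and 17.54 in H1975, A549 and H1299 (F test, adjusted p = 0.979).

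RPS27L was the member most set apart in A549. With PBS it averaged 10.91 ± 0.29 in H1975, 13.29 ± 0.49 in A549 and 9.63 ± 0.70 in H1299 (SD), and all 4 A549 arrays were above all others. The difference was -2.39 ± 0.33 for H1975 minus A549 (SE; adjusted p = 8.21e-07), 1.27 ± 0.32 for H1975 minus H1299 (SE; adjusted p = 0.00148) and 3.66 ± 0.32 for A549 minus H1299 (SE; 12.6-fold; adjusted p = 7.71e-11). As background, A549 carries wild-type p53, H1975 a mutant and H1299 none. Of 13 measured p53 target genes, 11 were lower in H1975 than in A549 (18% of all genes) and 0 higher (20.3%). In A549 against H1299, 10 were higher (19% of all genes) and 1 lower (22.5%). For H1975 minus H1299, where RPS27L was higher, 2 of the 13 were higher (21.2% of all genes) and 5 lower (20.8%), with a median of -0.53. The neighbours of RPS27L differed by a median of -1.22 for H1975 minus A549, -0.56 for H1975 minus H1299 and 0.39 for A549 minus H1299. What p53 or the place on chromosome 15 contributes was not tested.

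The canonical parent RPS27 differed less between the lines, at 16.35 ± 0.25, 15.85 ± 0.29 and 16.20 ± 0.37 in H1975, A549 and H1299 with PBS (SD), and no pair of lines was told apart. For RPL22 the A549 level was lower than that of H1299 (-0.80, adjusted p = 0.000559), as for RPL22L1. RPL7L1 was lower in A549 than in H1299 (-1.002, adjusted p = 0.000106) and RPL7 was as well (-0.92).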

How the data were processed

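Gene expression was measured on 26 single-colour arrays of 3 lung cancer cell lines. The authors deposited log2 values, and RMA and Partek are named, without versions, per the submitters' processing notes; no genome build is named in the sources used here. Probe sets were named through the platform annotation: 17709 had 1 symbol, and for 20 genes with several probe sets the brightest was kept, leaving 17687 genes.

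Groups came from the labels. A linear model with a mean for each of the 6 groups and no block was fitted in limma 3.58.1 (R 4.3.3, statmod 1.5.0), leaving 20 residual degrees of freedom. A call means an adjusted p (Benjamini-Hochberg, all genes) under 0.05. The fit was tested on simulated data. Contrasts were Omomyc minus PBS per line, their average, the difference of responses, and PBS differences between lines. Runs are 3 clusters of the sorted values of each array. Alternatives were quantile normalization, median centring, a filter on low genes, the mean of probe sets, trend and robust settings, the replicate number or the run as a block, 1 line or 1 run alone, an adjusted p under 0.01 and leaving out each array.

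To see whether replicate numbers pair Omomyc with PBS arrays, deviations from the group means were correlated. In H1299 (5 pairs, r 0.26 to 0.39) and A549 (3 pairs, 0.11 to 0.20) every pair exceeded 0.1, but in H1975 (4 pairs, -0.20 to 0.33) only 1 did. A549 and H1299 pairs were each within a single run, and after removal of the run effect 0 pairs exceeded 0.1. Pairing apart from the run is thus not shown in any line. The reported fit used no replicate block, which was run only as an alternative.

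The members and lists were chosen with earlier results of these data known. Named genes are all paralogs and parents, the 8 highest and 8 lowest changes per line and on average, called members, the 10 smallest F test p for response and for PBS level, RPS4X, FAU and RPL36AL. Promoter letters and gene neighbours are from RefSeq (GRCh38.p14; 46 of 52 members have a promoter entry), used for sequence and order only, and were looked at after the values were seen. No pair of arrays of a group held identical values.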

Additional observations from a re-analysis of the deposited data

Results flagged for a closer look

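RPL22L1 had responses that differed between lines by their own test: the H1975 response minus the H1299 response was 3.09, with all Omomyc arrays above PBS in H1975 and all below PBS in H1299.

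Single arrays stood apart in 5 of 190 groups of 4 or 5 arrays of named members (2.63%), where chance gives about 1 in 20. RPS27 on Omomyc replicate 4 of H1975 was at 16.18, with the nearest of the other arrays at 16.48. RPL27 on Omomyc replicate 1 of H1299 was at 11.42, nearest 11.98. RPS28 on PBS replicate 2 of H1299 was at 15.78, nearest 16.74. RPL21 on PBS replicate 3 of H1299 was at 14.73, nearest 15.05. RPS12 on PBS replicate 3 of A549 was at 14.73, nearest 14.41. RPL27 was on a run 1 array and the other 4 were on run 2 arrays, and none of these groups gave a called response.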

How the results depend on the processing

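RPL22L1 was called in H1975 and in H1299 under every alternative on more than 1 run. The count of members called in H1975, 1 as reported, was 2 under quantile normalization (RPL22L1, RPS27L), 3 under median centring (with RPS29), 3 with trend and robust settings (RPL22L1, RPL30, RPS14), 3 with the run block (RPL22L1, RPS27L, RPS29), and 0, 4 and 0 in runs 1, 2 and 3 alone. In H1299 it was 0 in run 1 alone and 3 in run 3 alone (RPL22L1, RPS15, RPS27L). RPL22L1 alone in run 1 of H1975 was 1.09 (adjusted p = 0.184), in run 3 of H1975 0.95 (0.286) and in run 1 of H1299 -1.90 (0.137); such fits hold 1 or 2 arrays a group. For the average of the lines the count, 0 as reported, was 2 under quantile normalization (RPL29, RPL7L1), 2 under median centring (RPL29, RPS27L), 2 with the run block (RPL29, RPL7L1), and 1 (RPL29) with low genes left out, with trend and robust settings, and with run and replicate block together. The canonical median of H1975 was 0.0025 in run 1 alone and that of H1299 -0.16. The paralog median of H1975 was 0.98 in run 2 alone and 0.049 in run 3 alone. Of all genes, 11.8% were called in H1975 in the reported fit and 19.2% with the run block. For the average of the lines these shares were 11.2% and 18.4%. Shares of all genes under the other alternatives are not given here, so these counts do not show a gain of members over all genes. The causes were not tested.

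With the replicate number as a block, 3 members were called in H1975 (RPL22L1, RPS19, RPS27L), 0 in A549 and 1 in H1299. The H1975 canonical median was then 0.24, and the RPL22L1 response difference between H1975 and A549 passed (1.17, adjusted p = 0.035). These H1975 results rest on replicate numbers that are not shown to pair its arrays. The share of all genes called with this block is not given here, so the 3 members are not set against it. The block changed no call in A549, in H1299 or in the average of the lines. The PBS levels of the lines could not be fitted with this block, which lies within lines. Leaving out 1 array at a time gave 1 to 2 members in H1975, 0 in A549, 1 in H1299 and 0 to 1 for the average. It gave 32 to 37 for the PBS level and 1 for the response difference. With all arrays, 56.1% of all genes differed in PBS level and 8.18% in response. Shares of all genes in the fits without an array are not given here. RPS19 was the second member in H1975, called without PBS replicate 1 (0.67, adjusted p = 0.0435) and without Omomyc replicate 5 (0.64, adjusted p = 0.0431). For the average the 1 member was RPL7L1 without Omomyc replicate 3 of H1975, and RPL29 without PBS replicate 1 or Omomyc replicate 2 or 5 of H1975, PBS replicate 1 or 3 of A549, or PBS replicate 2 of H1299. Canonical medians ran from 0.18 to 0.29 in H1975, 0.03 to 0.22 in A549 and -0.0012 to 0.07 in H1299, and paralog medians from 0.12 to 0.54, -0.18 to 0.10 and -0.31 to -0.13. Signal over background limits RPL39L, RPL3L and RPL10L.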
